A study of Homo sapiens with 10 samples.

Results

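The regions described here were called as sites of RNA-DNA hybrids in both wild-type libraries of U2OS cells and in none of the 3 libraries of U2OS cells that carry TDP1 H493R. Peaks of 5 DRIP libraries on chromosomes 1 to 22 and X that overlapped or directly adjoined were merged into 177004 regions. Of these, 2466 held a peak of both wild-type (WT) libraries and of no SCAN1 library. The 62 of them on chromosome 14 from base 89954968, the start of TDP1, to the chromosome's end were left out, which left 2404 regions, 1.36% of all merged regions. The regions were chosen by the peak calls of these same 5 libraries, so their presence in WT and their absence from SCAN1 are a description and carry no test. The number rested on each library. Without SCAN1#1 replicate 2, whose list is the longest with 110745 peaks, it was 5687, without SCAN1#2 4141, and without SCAN1#1 replicate 1, the shortest list with 63456 peaks, 3315. With only WT replicate 2 it was 16457 and with only WT replicate 1 it was 17416.

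DRIP-seq pulls down RNA-DNA hybrids with the S9.6 antibody and sequences them. U2OS is a human osteosarcoma cell line. The groups were U2OS cells with the genotype WT, in experiments 1 and 2, and U2OS cells with the genotype TDP1 H493R (SCAN1), with line SCAN1#1 used in both experiments and line SCAN1#2 in experiment 2 alone. SCAN1 is spinocerebellar ataxia with axonal neuropathy, and the H493R change in TDP1 causes it. The replicate number of a library is its experiment, and the antibody lots differed between the experiments. No drug treatment is named in the labels, and they do not say whether a line is 1 clone or whether replicates were separate cultures. The 5 input samples are not analysed here.

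An R-loop forms when a transcript pairs with the template strand behind RNA polymerase and leaves the other DNA strand unpaired. Stretches rich in guanine on the unpaired strand are known to favour it, as are sites where supercoils are not relaxed, and topoisomerase 1 relaxes them. TDP1 removes topoisomerase 1 that is trapped on DNA, and the H493R change slows the last step of that reaction. In most cells R-loops are known to be frequent at the starts and the ends of active genes. Osteoblast and mesenchymal markers had peaks over 9 to 11 of 13 genes per library, against 1 to 3 of 6 blood markers, 3 to 5 of 6 epithelial markers and 4 to 5 of 6 neuronal markers. The mesenchymal regulator TWIST1 had no peak in any library, and the collagen gene COL1A2 had 1 in SCAN1#2 and none in the others.

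Promoter sequence could be read for 22 windows under 21 of the regions, from the RefSeq table of GRCh38.p14, in which a window runs from 250 bases before to 50 bases after an annotated start. Only 6 of the windows lay wholly inside a region called only in WT, and CENPS and the readthrough gene CENPS-CORT share 1 of them. These windows are shown because every base of them lies in such a region. They are written 5′ to 3′ on the strand of the gene, and capitals mark each run of GGGG or CCCC (4 or more of the same base, that is a run of G on either strand).
The window of C12orf75-AS1, a long noncoding RNA, is chr12:105326968-105327267 on the minus strand.
C12orf75-AS1: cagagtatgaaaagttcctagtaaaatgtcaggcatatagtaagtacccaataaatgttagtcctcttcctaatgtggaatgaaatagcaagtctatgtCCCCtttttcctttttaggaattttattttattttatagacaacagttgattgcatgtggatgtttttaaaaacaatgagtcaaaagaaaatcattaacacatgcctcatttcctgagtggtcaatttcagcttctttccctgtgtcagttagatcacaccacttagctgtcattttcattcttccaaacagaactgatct
The window of LOC124900404, a long noncoding RNA, is chr1:98054129-98054428 on the plus strand.
LOC124900404: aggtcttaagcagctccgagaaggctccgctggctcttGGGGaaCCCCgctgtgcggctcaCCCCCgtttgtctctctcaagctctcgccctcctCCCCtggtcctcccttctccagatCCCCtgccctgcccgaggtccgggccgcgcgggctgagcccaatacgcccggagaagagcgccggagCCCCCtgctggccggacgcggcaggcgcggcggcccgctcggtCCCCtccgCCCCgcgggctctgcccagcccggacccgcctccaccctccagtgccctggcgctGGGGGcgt
The window of STARD8, a START-domain gene, is chrX:68647416-68647715 on the plus strand.
STARD8: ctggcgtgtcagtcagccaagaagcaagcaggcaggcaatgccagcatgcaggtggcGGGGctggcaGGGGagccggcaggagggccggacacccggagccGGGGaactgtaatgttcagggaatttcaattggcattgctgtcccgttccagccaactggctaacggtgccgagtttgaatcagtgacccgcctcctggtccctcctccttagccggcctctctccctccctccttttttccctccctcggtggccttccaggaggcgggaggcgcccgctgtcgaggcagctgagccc
The window of CENPS, a centromere protein that also acts in the Fanconi anaemia pathway, is chr1:10430183-10430482 on the plus strand.
CENPS: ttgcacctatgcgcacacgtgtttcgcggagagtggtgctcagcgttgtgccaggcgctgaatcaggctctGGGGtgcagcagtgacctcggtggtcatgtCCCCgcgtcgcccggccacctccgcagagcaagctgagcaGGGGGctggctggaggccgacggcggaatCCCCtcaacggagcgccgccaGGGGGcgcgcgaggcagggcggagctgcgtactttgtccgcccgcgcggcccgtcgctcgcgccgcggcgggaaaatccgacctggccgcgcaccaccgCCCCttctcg
The window of ZNF343, a zinc finger gene, is chr20:2524473-2524772 on the minus strand.
ZNF343: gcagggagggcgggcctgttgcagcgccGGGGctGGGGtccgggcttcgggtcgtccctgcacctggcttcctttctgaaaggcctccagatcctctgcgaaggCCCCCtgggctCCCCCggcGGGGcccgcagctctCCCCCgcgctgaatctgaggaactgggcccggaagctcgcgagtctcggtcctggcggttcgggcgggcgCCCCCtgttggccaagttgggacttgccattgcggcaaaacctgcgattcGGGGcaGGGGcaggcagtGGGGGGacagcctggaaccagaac

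The 5 sequences differed widely in composition. C12orf75-AS1 had 34.0% G and C with no CpG dinucleotide and 1 run of C. LOC124900404 had 74.0% with 30 CpG and 2 runs of G and 7 of C, and CENPS 71.3% with 39 CpG and 3 runs of each kind. ZNF343 had 70.3% with 23 CpG and 6 runs of G and 4 of C, and STARD8 64.3% with 16 CpG and 3 runs of G. Their peaks in WT were of ordinary height, with folds of 5.05 and 5.68 in WT replicates 1 and 2 at C12orf75-AS1, 4.99 and 4.93 at LOC124900404, 4.27 and 4.55 at STARD8, 4.05 and 4.24 at CENPS, and 3.88 and 4.93 at ZNF343. The fold is the authors' value per peak, a ratio of its pile-up of reads to the peak caller's background estimate. The nearest SCAN1 peak lay 256 bases away at CENPS and 377 at ZNF343, but 3479 at C12orf75-AS1, 4062 at STARD8 and 19562 at LOC124900404.

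Over the 22 windows the median content of G and C was 56.3%, against 66.0% in 5908 windows under regions called in all 5 libraries, 64.3% in 649 windows under the other regions called in exactly 2 libraries and 58.7% in all 34961 windows. The ratio of observed to expected CpG had medians of 0.596, 0.841, 0.787 and 0.580 in the same order. A run of GGGG or CCCC was present in 22 of 22 windows and in 89.7% of all windows, so nearly all promoters hold one. A run of G on the gene's own strand was present in 17 of 22 (77.3%) against 75.1% of all. The 22 windows thus resembled promoters at large in these measures and had less G and C and a lower CpG ratio than promoters under shared regions. The sets also differed in kind of gene. Of the 22 windows, 11 were of long noncoding RNA genes, against 1141 of 5908 under regions called in all 5 libraries. Under the other regions of exactly 2 libraries it was 190 of 649, and over all windows 12829 of 34961. Whether this bears on the base content was not tested. Only 6 of the 22 windows lay wholly inside a region, and the overlap of the others went down to 13 bases. Much of the sequence summarised thus lies outside the regions, and the window shared by CENPS and CENPS-CORT counts for both. Beside the 6 whole windows, the regions touched those of KPNA6, a nuclear import receptor (270 bases), PHOX2A, a regulator of autonomic neurons (86 bases), IKZF2, a transcription factor of lymphocytes (90 bases), and MAP1B, a microtubule protein of neurons (43 bases). Of 1558 miRNA hairpins none lay under the 2404 regions, and only 254 of all 177004 merged regions overlapped one, too few for a comparison.

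The regions called only in WT were narrower and lower than the other regions called in both WT libraries. Of 42571 regions outside distal chromosome 14 with peaks in both WT libraries, 2404 (5.65%) had a peak in 0 SCAN1 libraries, 5827 in 1, 12416 in 2 and 21924 in 3. Median fold in WT replicate 1 was 4.55, 4.69, 5.05 and 6.06 in that order, and in WT replicate 2 it was 4.93, 5.32, 6.09 and 7.52. Median width was 430.5, 532, 671.5 and 1148 bases. The share at ends of protein-coding genes, meaning that the midpoint lay within 1 kb of either end, was 3.87%, 5.18%, 6.10% and 18.5%. By these medians, width, fold and gene-end share were all lowest where no SCAN1 library had a peak and went up with each further SCAN1 library. Width is that of the union of all peaks in a region and the fold is the highest of a library's peaks there, so both can grow with each further library that adds a peak. The other regions called in exactly 2 libraries were about as wide as the regions called only in WT, with a median of 444 bases (quartiles 345 and 591) against 430.5 (344 and 584). These 4 groups are a description, since the rule that picks the first uses the same calls.

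**Figure D1:**
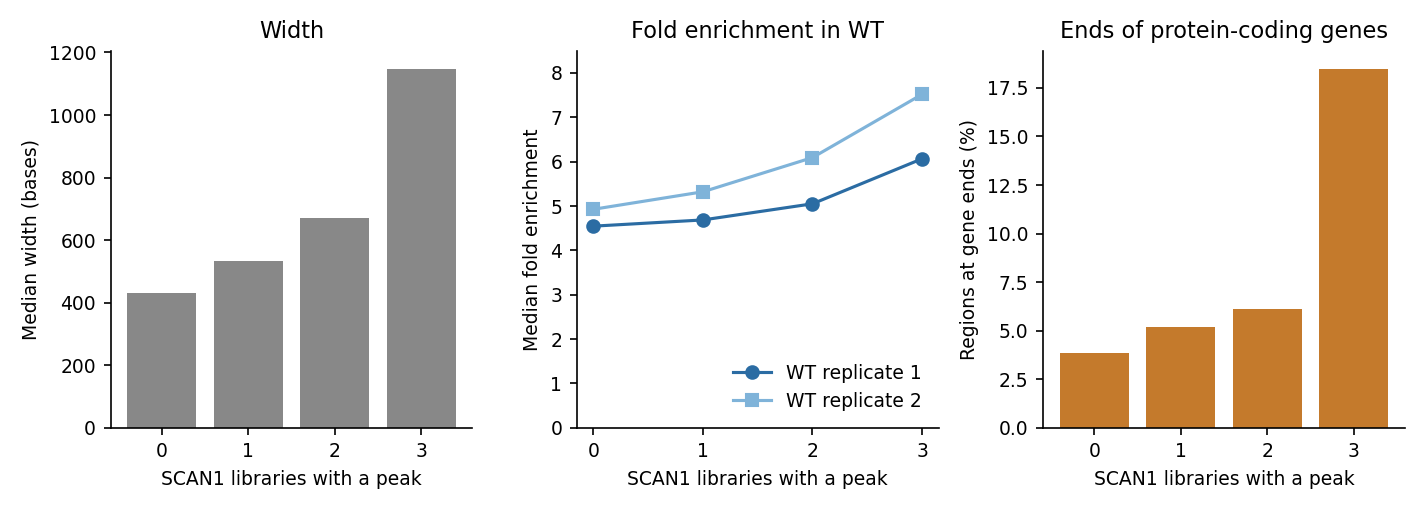
Regions with peaks in both WT libraries, by the number of SCAN1 libraries with a peak (horizontal axis): median width in bases (left bars), median fold enrichment in each WT library (middle, points joined by lines) and percent of regions at ends of protein-coding genes (right bars). Width goes from 430.5 to 1148 bases and the gene-end share from 3.87% to 18.5% between 0 and 3 SCAN1 libraries.

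The deposited values allowed the height of a peak in reads to be recovered. A single whole number of piled-up reads reproduces both the fold and the -log10 p of 99.8% to 99.9% of the peaks of each library. All peaks in the regions called only in WT could be solved in this way, 2420 in WT replicate 1 and 2407 in WT replicate 2. Their pile-ups ran from 8 to 43 reads in both libraries, with medians of 13 and 14, against 14 and 16 for all peaks of the same libraries. The lowest background estimate of a library, which depends on its number of reads, was 1.57 and 1.64 reads for WT in experiments 1 and 2, 1.27 and 1.78 reads for SCAN1#1, and 1.32 reads for SCAN1#2. SCAN1#1 replicate 1 and SCAN1#2 thus had 0.806 and 0.807 times the background of WT in the same experiment, and SCAN1#1 replicate 2 had 1.08 times.

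The depth limits which peaks a SCAN1 library could have shown. At its lowest background a library needed a pile-up of 7 or 8 reads to be called, which is a fold of 3.53 in SCAN1#1 replicate 1, 3.24 in SCAN1#1 replicate 2 and 3.44 in SCAN1#2. The smaller of the WT folds was under 3.53 in 416 of 2404 regions (17.3%). There a SCAN1 signal of the same fold could have gone uncalled if the SCAN1 background was at its lowest. Of the regions' peaks in WT replicates 1 and 2, 22.9% and 25.1% lay at their library's lowest background. Above it a lower fold can be called, as WT folds down to 2.68 and 2.57 show. At their lowest background the WT libraries needed 3.496 and 3.411, close to the SCAN1 values. The 17.3% is therefore no measure of what SCAN1 depth left uncalled. In 282 regions (11.7%) the smaller WT fold was over 1.5 times 3.53. The peak lists hold nothing below the threshold, so a region without a SCAN1 peak may still hold SCAN1 reads, and no SCAN1 level can be given. For the same reason no counting interval could be computed for a difference between WT and SCAN1 in a region.

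The folds of the regions spread little. In WT replicate 1 they ran from 2.68 to 12.8 with quartiles of 3.92 and 5.15, and in WT replicate 2 from 2.57 to 15.9 with quartiles of 4.17 and 5.90. Only 2 regions exceeded 10-fold in WT replicate 1 and 10 in WT replicate 2, while 3.39% and 8.58% of all peaks of these libraries did. The strongest peaks of the whole lists reached 259 and 246. The summits of the WT libraries lay at a median distance of 85 bases, and within 100 bases in 55.9% of regions. In regions called in all 5 libraries the median distance was 92 bases. The rule puts both WT peaks in 1 region, and the width of a region limits how far apart summits can lie. Median width was 430.5 bases in the regions called only in WT and 1149 in those called in all 5 libraries. The distances are therefore no measure of how well the WT libraries match. Across regions, which share the same libraries and are not independent replicates, the log2 folds of the WT libraries correlated by 0.26 (Pearson) in the 2404 regions and by 0.66 in the 21944 regions called in all 5 libraries, where the folds range much more widely.

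**Figure D2:**
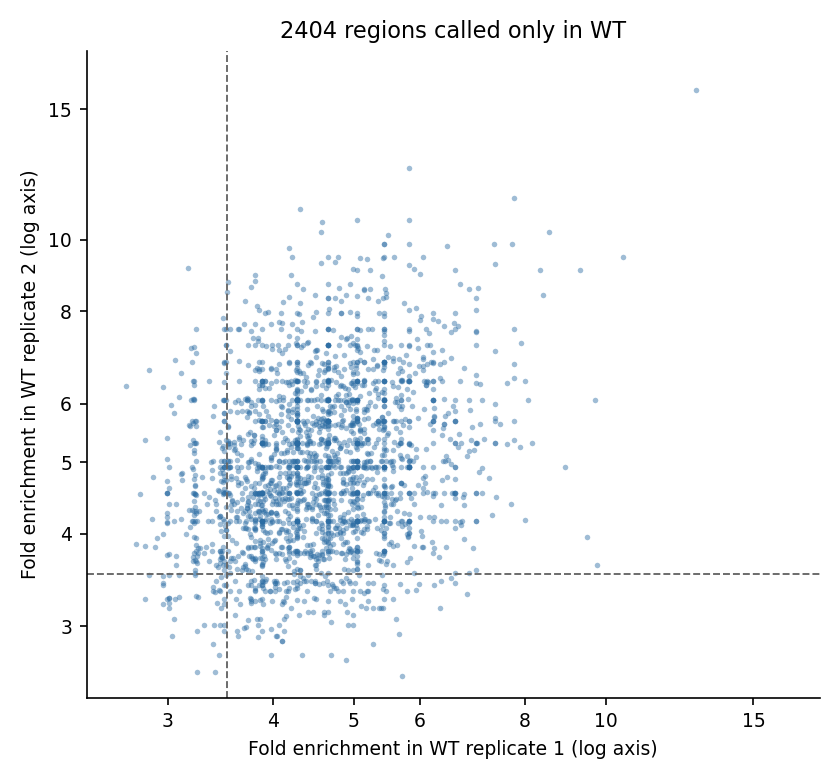
Each point is 1 of the 2404 regions, with its fold enrichment in WT replicate 1 (horizontal, log axis) and in WT replicate 2 (vertical, log axis). Dashed lines mark 3.53, the fold that SCAN1#1 replicate 1 needed for a call at its lowest background; most points lie within a factor of a few of it, and 1 point stands alone at 12.8 and 15.9.

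A minority of the regions entered with a WT peak close to the threshold of the lists. The smaller -log10 q of the WT peaks was as low as 2.00, the threshold of the lists, and under 3 in 347 regions (14.4%), with a median of 4.27. Just outside lay the 5827 regions with 1 SCAN1 peak, which came from SCAN1#1 replicate 2 in 3245 cases, from SCAN1#2 in 1728 and from SCAN1#1 replicate 1 in 854. The -log10 q of that SCAN1 peak started at 2.01, had a median of 7.36 and was under 3 in 226 regions (3.88%). Most of these SCAN1 peaks thus lay well above the threshold. Another 28546 regions had a peak in 1 WT library only, 14630 in replicate 1 and 13916 in replicate 2.

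The number also moved with the threshold. When only peaks of -log10 q of at least 5 counted in WT and all peaks counted in SCAN1, 796 regions of 2404 were left, and when that threshold held in every library, 1390.

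The strongest region of all lay at chr19:1546345-1547873, in intergenic sequence 6799 bases from MEX3D, an RNA-binding protein gene, and reached 12.8-fold in WT replicate 1 (32 reads) and 15.9-fold in WT replicate 2 (41 reads). It did not stand alone. A region of 2009 bases, the widest of all 2404, lay at chr19:1544020-1546028 with folds of 6.99 and 8.03, and another at chr19:1541840-1542500 with 5.05 and 4.55. Another of 1891 bases covered part of PLK5, a polo-like kinase family gene, at chr19:1524690-1526580 with 7.77 and 5.35. From the first to the last of these regions, over 23.2 kb, WT peaks covered 57.0% of the bases in replicate 1 and 27.9% in replicate 2. SCAN1 peaks covered 2.17% in SCAN1#1 replicate 1, 4.25% in SCAN1#1 replicate 2 and 2.83% in SCAN1#2. The regions that bound the span were chosen by the calls, and their own peaks are counted in WT. This contrast is therefore a description. The SCAN1 libraries were not empty here, with 1, 2 and 1 peaks in the same span and folds up to 5.59, 7.20 and 6.03. SCAN1#1 replicate 2 also had a peak of 6.84-fold 560 bases from the strongest region, and SCAN1#1 replicate 1 a peak of 6.17-fold 34 bases from the region in PLK5.

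**Figure D3:**
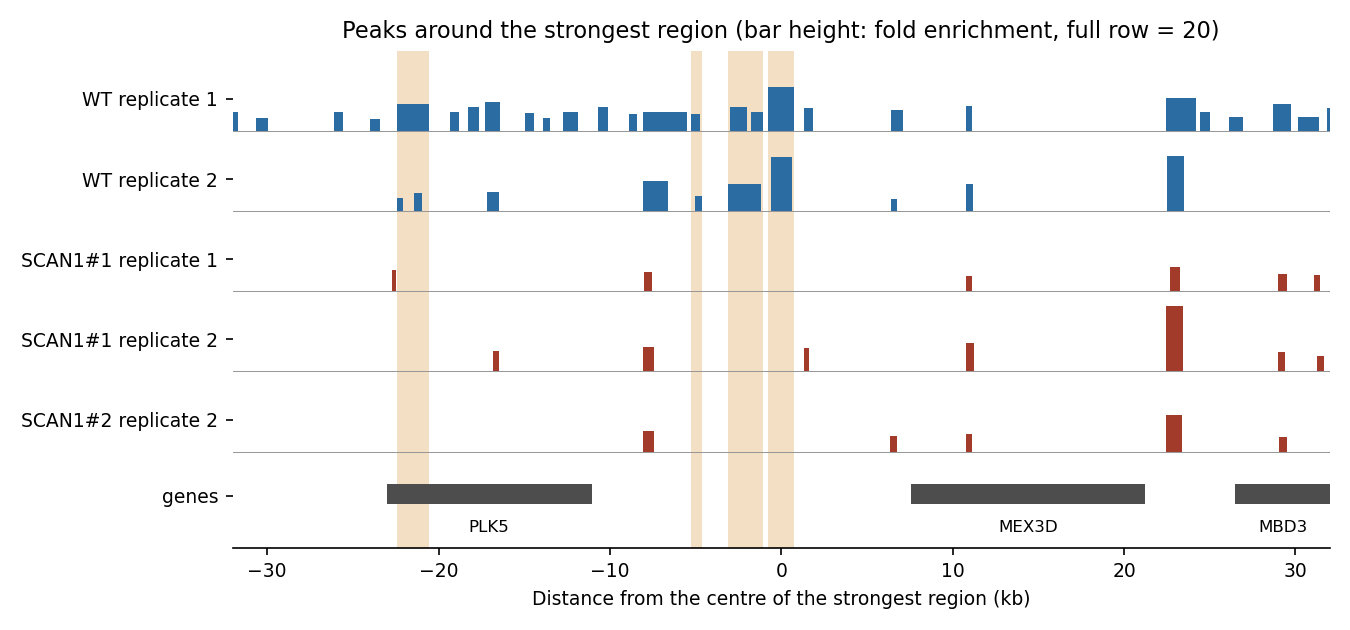
Peaks of the 5 libraries within 32 kb of the centre of the strongest region (horizontal axis, distance in kb), with bar height showing fold enrichment (a full row is 20) and grey boxes below showing protein-coding genes. Shaded bands are the 4 regions called only in WT: WT rows carry peaks in all of them and the SCAN1 rows have peaks beside the bands and near MEX3D but none within.

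The other regions of highest smaller WT fold were scattered and narrow, 307 to 617 bases wide. On chromosome X, chrX:119026953-119027569 had folds of 10.5 and 9.47, 8598 bases from LONRF3, a RING finger gene, with the nearest SCAN1 peak 85316 bases away. chr5:106782874-106783193 had 9.32 and 9.09 and lay 593701 bases from the nearest coding gene, EFNA5, which encodes an ephrin ligand. chr21:23913789-23914154 had 8.55 and 10.2 in a stretch whose nearest coding gene was 1671502 bases away. Inside genes, chr12:12665780-12666182 in GPR19, an orphan receptor, had 8.42 and 8.42 (28 reads in both libraries). A region in CACNB2, a subunit of voltage-gated calcium channels, had 7.73 and 9.86 (chr10:18152726-18153042). CDH3, which encodes P-cadherin, held 7.35 and 9.85 at chr16:68716633-68716946. In the long noncoding VIM-AS1, next to the vimentin gene VIM, chr10:17220769-17221125 had 7.91 and 7.25 with a SCAN1 peak 571 bases away. LOC105374308 on chromosome 3 had 8.34 and 9.09. On chromosome 8, a region over the pseudogene ENPP7P1 and FAM85B had 7.77 and 11.4. Intergenic regions there had 7.77 and 7.58, 102437 bases from CA8, and 7.38 and 9.27, 6103 bases from ABRA. Of these 12, 3 lay inside protein-coding genes and none within 1 kb of the end of one.

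Most regions lay inside genes. Protein-coding gene interiors held 1344 of 2404 (55.9%), other genes 208 (8.65%), intergenic sequence 759 (31.6%) and ends of protein-coding genes 93 (3.87%). Among the 33055 other regions called in exactly 2 libraries the shares were 52.3% for coding gene interiors, 10.4% for other genes and 31.9% for intergenic sequence, with 1785 at gene ends, and among all merged regions 52.8%, 9.83% and 30.2%, with 7.22% at gene ends. The regions called in all 3 SCAN1 and no WT library, 1673 in number, had 11.2% at gene ends. Regions differ in sequence and neighbourhood and are not replicates, so these shares are compared without a test. Without WT replicate 1 the gene-end share was 3.08% and without WT replicate 2 it was 7.03%, and class by any overlap gave 4.95%.

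Few of the regions called only in WT lay at gene starts. Their midpoints lay within 1 kb of an annotated start of a gene of known strand in 34 cases (1.41%) and of an annotated end in 45 (1.87%). Of the 21944 regions called in all 5 libraries, 2628 lay at starts and 927 (4.22%) at ends. The shares were 2.53% and 2.01% for the other regions of exactly 2 libraries and 3.79% and 2.36% for all merged regions. Within genes of at least 10 kb, 1115 midpoints were spread almost evenly from start to end, with 8.34% to 13.2% in each of 10 equal segments and 10.1% in the first. That first segment held 27.2% of the regions called in all 5 libraries and 13.0% of the other regions of exactly 2 libraries.

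**Figure D4:**
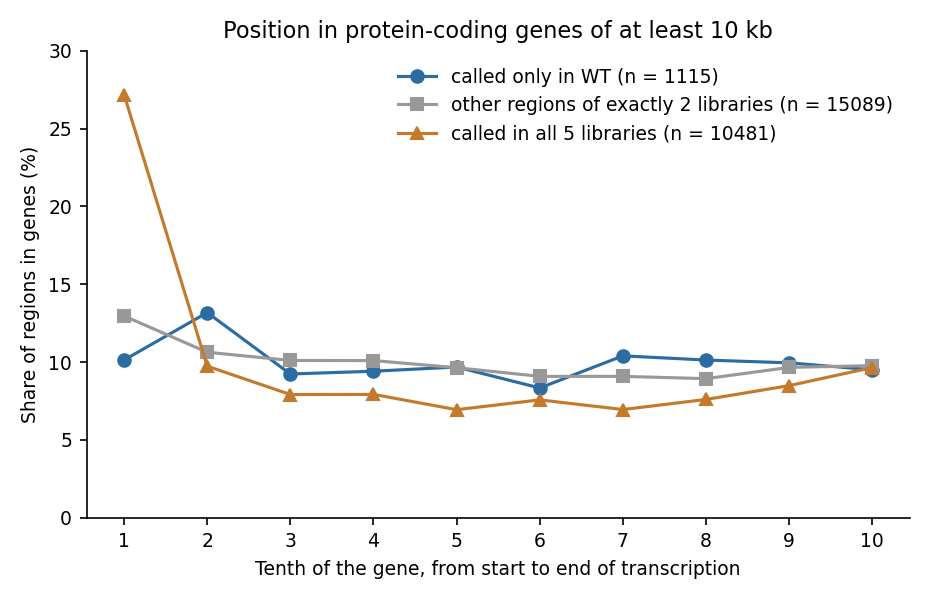
Share of regions (vertical axis, percent) in each of 10 equal segments of protein-coding genes of at least 10 kb, from the start to the end of transcription (horizontal axis). The first segment holds 10.1% of the regions called only in WT (circles), 13.0% of the other regions of exactly 2 libraries (squares) and 27.2% of the regions called in all 5 libraries (triangles).

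The gene-end regions of highest smaller fold were modest in height. By the starts of LYPD4 and of DMRTC2, a DM-domain gene, chr19:41843930-41844213 had 5.99 and 8.99. At the start of NAALADL2, chr3:174440017-174440385 had 5.83 and 10.6, with the nearest SCAN1 peak 68798 bases away. The start shared by LEPR, the leptin receptor, and LEPROT had 5.83 and 5.68 at chr1:65419654-65420039. MRPS31 and MCAT, genes of the mitochondrial ribosome and of mitochondrial fatty acid synthesis, had 5.44 and 5.68, and 7.63 and 5.30, at their starts. At the ends of genes, COL27A1, a fibrillar collagen gene, had 5.71 and 6.45 at chr9:114311572-114311938. TRAPPC5, a subunit of a vesicle tethering complex, had 6.22 and 5.68, ZNF625 7.38 and 5.68, ZNF688 5.73 and 6.82 and TMEM63A 5.42 and 5.68. The strand of HOXC6, a homeobox gene (5.23 and 5.02), and of RPL3L, a ribosomal protein gene of muscle (15 and 16 reads), is not in the tables used here, so the side of the gene is not given for them. At 8 of these 12 gene-end regions a SCAN1 peak was called 50 to 891 bases away.

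Genes that held a region called only in WT mostly held SCAN1 peaks elsewhere. Of 19817 protein-coding genes, 1272 (6.42%) overlapped at least 1 such region, 142 of them 2 or more. All 3 SCAN1 libraries had a peak somewhere in 1088 of the 1272 genes (85.5%), and no like share over all genes is given here. A host gene held a median of 11 merged regions, so the 85.5% is not read as a trait of these genes. In 31 of the 1272 (2.44%) no SCAN1 library had a peak, against 73 of all 11844 protein-coding genes with peaks in both WT libraries. Host genes were chosen by a region without SCAN1 peaks, which itself favours such a lack. This contrast is therefore a description and carries no test. Host genes were long, with a median of 65051 bases against 33288 for all genes with a peak. Genes of 200000 bases or more held a region in 17.1% of cases and those under 10000 bases in 0.989%, but as a share of the merged regions in them the difference was small, 1.24% against 0.975%. Leaving the 2404 regions aside, peaks covered on average 7.37% and 6.15% of a host gene in the WT libraries of experiments 1 and 2. In SCAN1#1 they covered 5.94% and 7.33%, and in SCAN1#2 5.36%. Within experiment 1 WT was the higher, and within experiment 2 it lay between the SCAN1 libraries. All protein-coding genes with a peak were covered over 12.3% and 10.4% in the WT libraries, 11.6% and 12.7% in those of SCAN1#1 and 9.89% in SCAN1#2. As a ratio to that, the rest of the host genes stood at 0.599 and 0.594 in WT, 0.511 and 0.580 in SCAN1#1 and 0.542 in SCAN1#2, higher in both WT libraries, whose peaks chose these genes.

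LSAMP, a neural cell adhesion gene of 643114 bases, and ZFHX3, a transcription factor gene of 1109046 bases, held most, 5 regions each. In LSAMP the smaller fold of the best region, chr3:115853293-115853910, was 5.53 (6.22 in WT replicate 1), and the other 4 ran from 3.25 to 5.31 in WT replicate 2. LSAMP had 17 and 40 peaks in the WT libraries, 7 and 21 in those of SCAN1#1 and 25 in SCAN1#2. In ZFHX3 the numbers were 40 and 62 against 21, 50 and 41, so that in both genes each WT library had more peaks than the SCAN1 libraries of its own experiment. The regions that chose these genes are among those WT peaks. Without them, peaks covered 0.667% and 2.99% of LSAMP in the WT libraries of experiments 1 and 2, 0.380% and 1.49% in those of SCAN1#1 and 1.66% in SCAN1#2. For ZFHX3 the values were 1.36% and 2.50%, 0.728% and 2.15%, and 1.94%, again higher in WT within each experiment. PRKAR1B (a regulatory subunit of protein kinase A), SEPTIN9 (a cytoskeletal GTPase), GSE1 and SDK1 (a cell adhesion gene) held 4 each. In these genes WT was not the higher throughout. Without the regions, peaks of WT replicate 2 covered 4.12%, 7.02%, 2.93% and 2.36% of them in that order. Those of SCAN1#1 replicate 2 covered more, 6.19%, 8.41%, 3.98% and 2.59%, and those of SCAN1#2 less in each. In experiment 1 WT was the higher in all but PRKAR1B. GINS1, a subunit of the replicative helicase, held 3 within its 40891 bases, with folds of 3.52 and 3.63, 4.51 and 5.10, and 3.81 and 4.17. TCF3, a transcription factor, held 3 within its 43324 bases at chr19:1609292-1652615, the best with 5.70 and 4.17. In TCF3 the WT libraries had 14 and 5 peaks and the SCAN1 libraries 8, 3 and 2. WDFY1 and TBC1D31 also held 3. Without the regions, the WT coverage in experiment 2 was below both SCAN1 libraries in GINS1 and WDFY1, and between them in TCF3 and TBC1D31. Further genes held 3 as well, and the shortest of those are named.

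No gene with 2 or more regions lacked SCAN1 peaks altogether. The 31 host genes without any SCAN1 peak held 1 region each and are named here after their values were seen. The highest smaller folds among them were 6.13 and 6.41 in ATOH8, a basic helix-loop-helix factor (chr2:85772937-85773327), and 5.46 and 8.36 in PIK3CG, a catalytic subunit of phosphoinositide 3-kinase (chr7:106900924-106901245). CFAP206 (5.44 and 6.06), CATIP (5.32 and 6.30), KRT73, a hair follicle keratin (5.31 and 6.44), FAM229B (5.05 and 7.58), CDHR1 (5.05 and 6.44) and TIFA (4.94 and 6.06) came next. Further down were E2F8, a repressor of the cell cycle, IL2RA, a subunit of the interleukin-2 receptor, TLR1, ADAMTS1 and BMF. Over all genes, 73 of 11844 with peaks in both WT libraries had none in any SCAN1 library, and the rule itself favours such genes among the hosts.

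The gene lists were read by the number of genes that held a region, beside 6.42% of all protein-coding genes, and by the share of their merged regions, beside 1.35% for all merged regions in protein-coding genes. Of 22 genes that act on topoisomerase 1 lesions and single-strand breaks, 3 held a region (1.55% of their merged regions). TOP3A, a topoisomerase, had 5.55 and 5.02, LIG1, a DNA ligase, 3.96 and 5.61, and APTX, which repairs abortive ligation ends, 3.96 and 3.93. The nearest SCAN1 peak was 201 bases away in TOP3A, 311 in LIG1 and 1301 in APTX. Of 40 double-strand break repair genes, 3 held a region (0.638%): FANCD2 (5.03 and 6.76), DCLRE1C, the Artemis nuclease (4.69 and 4.64), and NHEJ1, the end-joining factor XLF (3.86 and 8.02).

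Of 25 genes that process R-loops, 5 held a region, with 6 regions among 228 (2.63%). RNASEH2A, the catalytic subunit of RNase H2, had 5.15 and 4.93, with 4 and 3 peaks in the whole gene in the WT libraries and 4, 3 and 3 in those of SCAN1. DDX1, an RNA helicase, had 4.36 and 4.74, and SRSF1, a splicing factor, held a region too. Of 41 cell cycle and mitosis genes, 10 held a region, 10 regions among 313 (3.19%). CCND3, a D-type cyclin, had 4.80 and 7.20, CDK2 4.67 and 5.06, CCNE1, its cyclin partner, 4.29 and 6.43 at a gene end, and CDK6 4.28 and 5.70. MCM6, TPX2, KIF23, MCM5, BUB1 and CCND2 were the others. SCAN1 peaks were called in CCND3 (5, 9 and 9), CDK2 (1, 1 and 2), CCNE1 (1, 2 and 2) and CDK6 (11, 24 and 13) too, so these genes did not lack SCAN1 signal.

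Very long and fragile-site genes held a region in 13 of 36 cases, but with 20 among 1467 merged regions (1.36%) their share was that of all genes. CSMD3 (6.22 and 6.44), AUTS2 (5.83 and 7.20) and WWOX (5.69 and 6.06 in the better of 2 regions) led them. Cytoskeleton, YAP and TEAD genes held a region in 6 of 30 cases (1.87% of their regions), among them regions of 1582 bases in ACTN4 (5.23 and 6.02) and 1808 bases in TPM1 (5.39 and 3.67), which were among the 8 widest. TLN1 (3.74 and 4.06) and ACTN1 (3.71 and 3.61) were lower. Matrix and adhesion genes held one in 6 of 47 cases (1.26%), with LOXL1, a cross-linking enzyme, at 4.63 and 4.93 and ITGB4 at 5.05 and 4.46. The osteoblast and mesenchymal list held 1 of 29 (CDH11, 4.27 and 4.84), the p53 targets 1 of 25 (POLH, a translesion polymerase, 6.75 and 4.49), the epithelial markers 1 of 12 (GRHL2, 6.23 and 4.21) and the neuronal markers 2 of 12 (SYT1, 4.63 and 5.31; RBFOX3, 3.98 and 4.13). Zinc finger genes held one in 27 of 518 cases (1.10%), with ZNF433 (5.83 and 5.31) and ZNF395 (5.65 and 5.27) leading. No region lay in any of 12 blood cell markers or 389 olfactory receptor genes, which had only 18 and 104 merged regions in all.

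SCAN1 peaks were usually not far away. The nearest peak of any SCAN1 library lay at a median distance of 2978 bases, within 1 kb for 576 regions (24.0%) and within 10 kb for 1932 (80.4%), and beyond 50 kb for 39. By library the median was 8192 bases for SCAN1#1 replicate 1, 4316 for SCAN1#1 replicate 2 and 5265 for SCAN1#2, and 4896 and 4934.5 bases for the nearest further peak of each WT library. The 10 kb on either side of a region were covered by peaks over 6.77% and 5.85% in the WT libraries of experiments 1 and 2, over 5.14% and 6.52% in those of SCAN1#1 and over 4.92% in SCAN1#2. Around the other regions of exactly 2 libraries these were 5.55%, 4.77%, 5.05%, 5.97% and 4.26%. The ratio of the former to the latter was 1.22 and 1.23 in WT and 1.02, 1.09 and 1.15 in SCAN1. The flanks were thus somewhat richer in peaks in every library, and by more in both WT libraries than in the 3 of SCAN1. The regions were chosen by WT peaks and a lack of SCAN1 peaks, while each of the comparison regions holds a SCAN1 peak. The order of these ratios is therefore a description and carries no test.

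Within 10 kb of no other region called only in WT were 2258 of 2404, and 146 (6.07%) fell into 70 pairs and 2 groups of 3. Such spacing depends on the number of regions. No like share for another set is given, so it is not read as a trait of these regions. The groups of 3 were that near MEX3D and one on chromosome 21 at 9547634 to 9556621 with a best smaller fold of 4.08. The strongest pair lay in CDH3 at chr16:68716633-68719560.

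By chromosome the share of merged regions called only in WT went from 0.685% on chromosome 13 (14 regions) to 2.05% on chromosome 16 (159 regions). It was 1.83% on chromosome 10 and 1.77% on chromosome 19. The 1.14% of chromosome 14 leaves out the 62 such regions from the start of TDP1 on but counts all 5616 merged regions. Its place among the chromosomes therefore cannot be read from this share. Among 507 bins of 5 Mb with at least 100 merged regions the median share was 1.18% (quartiles 0.703% and 1.75%), and 55 bins held none. Bins of distal chromosome 14 lack the regions left out in the same way. The largest share was 3.94% (29 of 736) in the bin chr16:85000001-90000000. The bins chr21:5000001-10000000 (5 of 136), chr10:85000001-90000000 (6 of 165), chr10:20000001-25000000 (13 of 365) and chr3:195000001-200000000 (9 of 255) followed with 3.53% to 3.68%. The first 5 Mb of chromosome 19 held most, 37 of 1200 (3.08%), and took 10.7 and 5.43 of every 1000 peaks in the WT libraries of experiments 1 and 2, 9.58 and 4.51 in those of SCAN1#1 and 4.95 in SCAN1#2. In the chromosome 16 bin the WT libraries had 5.51 and 4.40 of every 1000 peaks, and the SCAN1 libraries 5.34, 3.95 and 3.55, so that WT was the higher within each experiment while the ranges over both experiments overlapped. The peaks of the 29 regions are counted in WT.

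**Figure D5:**
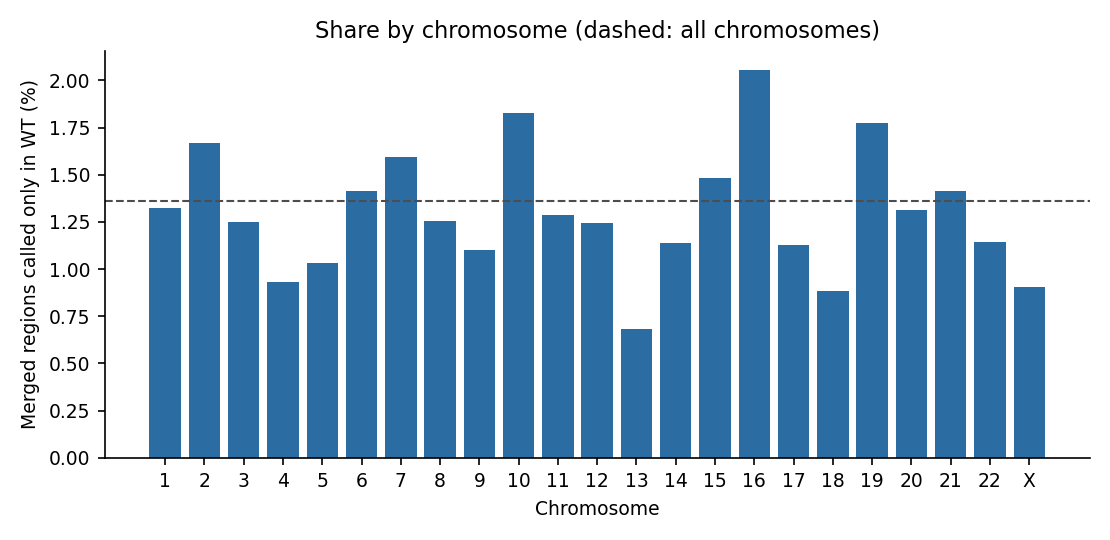
Percent of all merged regions on each chromosome (horizontal axis) that were called only in WT (vertical axis, percent); the dashed line is the share over all chromosomes. By this count chromosome 16 stands highest at 2.05% and chromosome 13 lowest at 0.685%. The bar of chromosome 14 leaves out the 62 regions from the start of TDP1 on but counts all its merged regions.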

How the data were processed

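DRIP-seq peak lists of 5 libraries were used, each called per library. Per the submitters' processing notes, MACS3 3.0.0a6, deepTools 3.5.1, BWA 0.7.17-r1188, SAMtools 1.9, FastQC 0.11.5 and build hg38 were used. What each did, the calling options and the control were not given in the sources used here. Per the labels' protocols, nuclei were not crosslinked and chromatin was sonicated. Per the layout of the deposited files, each peak has a fold enrichment (a ratio to the caller's background estimate), a -log10 p and a -log10 q. The deposited score is 10 times the -log10 q, rounded down, in nearly all peaks, and was used only to check the layout. The deposited distance of the summit from the peak start is in bases.

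The lists held 82545 and 89445 peaks for WT replicates 1 and 2, 63456 and 110745 for SCAN1#1 replicates 1 and 2, and 89932 for SCAN1#2. The number of reads per library is unknown. Peaks were merged where they overlapped or directly adjoined, and coordinates are 1-based on hg38. Pile-ups were solved as the whole number k for which (k + 1)/(background + 1) gives the deposited fold and the Poisson upper tail gives the deposited -log10 p within 0.2%. This was tested on simulated data, as was the merging. Genes and promoter windows came from RefSeq on GRCh38.p14 (58415 genes on chromosomes 1 to 22 and X, 19817 protein-coding). The 679 genes that the table places on scaffolds were left out. Classes go by the midpoint of a region. Strand is known only for genes in the promoter table.

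No test was run: the regions were chosen by the contrast itself, and regions are not replicates. The members, gene lists and naming rule were chosen with earlier results of these data known. The rule names the 12 regions and 12 gene-end regions of highest smaller WT fold, the 10 genes with most regions, the 8 widest regions, genes with at least 2 regions and no SCAN1 peak (none was found), 2 to 4 genes of each of 14 lists, and the 5 bins of largest share. Some named genes are not reported here. Alternatives were lists of equal length, a stricter threshold, other merging and cover rules, another class rule and leaving out each library. Tables were made with pandas 2.3.3 and numpy 2.4.6, tails with scipy 1.17.1 and plots with matplotlib 3.10.9, under Python 3.11.15.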

Additional observations from a re-analysis of the deposited data

How the results depend on the processing

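No paired analysis was possible because no result comes from a test. WT and SCAN1#1 share experiments 1 and 2, so values by library can be read within each experiment, as a description. Of 69 values under 12 other settings, 39 stayed within 1.5 times the count, the 95% exact binomial interval of the share (3.13% to 4.72% at gene ends) or the spread between the WT libraries, and 30 moved. The interval treats regions as independent draws, which they are not. The spread comes from the WT libraries alone, and for width from single peaks rather than merged regions. The split is therefore only a rough guide to stability. Leaving out each library in turn gave 3315 to 17416 regions, 3.08% to 7.03% at gene ends, 51.9% to 59.2% inside genes, 25.6% to 34.1% away from genes, median widths of 289 to 466 bases and median folds (mean of the WT medians, 4.74 as reported) of 4.26 to 4.96. With lists of equal length (63456 peaks each) 53.9% lay inside genes and the median fold was 5.33. With a -log10 q of at least 5 in every library there were 1390 regions, 5.68% at gene ends, with a median fold of 5.44. With that threshold in WT only there were 796 regions, 53.1% inside genes, 33.7% away from genes, a median width of 390 bases and a median fold of 5.44. Where WT peaks had to cover each other over at least 50% of both, 53.5% lay inside genes and 33.8% away from genes, with a median width of 377 bases. By any overlap 4.95% lay at gene ends. Merging across gaps of up to 500 bases (2192 regions) and keeping adjoining peaks apart (2406 regions, a setting chosen after seeing the data) moved no value. The cause was not tested in any of these. A region not called in SCAN1 has only an upper bound there, and the lists give no counts for it.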

Other observations

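Counting any overlap, regions that also lie in protein-coding genes included, 268 of the 2404 regions (11.1%) overlapped long noncoding RNA genes, against 13.2% of all merged regions. Pseudogenes were overlapped by 27 regions (1.12% against 0.938%) and transcribed pseudogenes by 31 (1.29% against 1.14%), shares near those of all merged regions. Of the 8 widest regions, 7 lay on chromosome 19. Beside those named above they included chr19:27748776-27750658 (1883 bases, folds of 4.96 and 4.18) with the nearest coding gene 1454662 bases away, chr19:55373255-55374786 near TMEM190 (5.44 and 3.41) and chr19:38943441-38944914 in FBXO17, an F-box protein gene (4.98 and 3.71). The nearest SCAN1 peak to these 3 lay 1376, 508 and 173 bases away.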
